A study of Mus musculus with 6 samples.

Results

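The EphA class receptor genes were examined in neurosphere cells transduced with a Bmi1 retroviral vector and in cells transduced with the empty vector. The 9 genes Epha1, Epha2, Epha3, Epha4, Epha5, Epha6, Epha7, Epha8 and Epha10 were taken by name, each through the probe set that the platform annotation assigns to that gene alone, and all 9 had one among the 19938 genes that could be named this way. Where a gene had several such probe sets, as Epha10 did, its brightest probe set by mean over all arrays stood for it. The Bmi1 overexpression group held 3 cultures carrying pCMMP-Bmi1, and the Empty vector control group held 3 cultures carrying the vector without the gene. Cells of both groups had been dissociated from lateral ventricle walls of outbred CD1 mice aged 4 to 6 weeks. Neurospheres are floating spheres that neural stem/progenitor (NSP) cells form in medium with EGF and FGF. All cells were sorted on the eGFP of the vector, grown at clonal density with 2000 cells per well and measured on Affymetrix Mouse Gene ST 1.0 arrays, 1 culture per array. Values are log2 expression, so that a difference of 1 is a doubling or a halving of signal. The cultures are described as independent in the study's design, without naming separate mice, so the p-values measure the spread between these cultures. The comparison asks which genes change when NSP cells carry extra Bmi1, which codes for a Polycomb group protein that represses transcription.

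Eph receptors are receptor tyrosine kinases that bind ephrins on the surface of neighbouring cells. EphA receptors mainly bind ephrin-A ligands, which are held in the membrane by a lipid anchor, and EphB receptors mainly bind the transmembrane ephrin-B ligands. Signals run into the receptor-bearing cell (forward) and into the ligand-bearing cell (reverse), and in the brain they guide axons, set tissue boundaries and act on the neural stem cell niche of the lateral ventricle.

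Of the 9 EphA genes 1 fell with Bmi1, 0 rose and 8 did not pass the test (limma, two-sided, adjusted p under 0.05 over 35557 probe sets). At an unadjusted p under 0.05 there were 4, where 22.7% of all genes lay under that p. The gene that fell was Epha7, by 3.82 on the log2 scale. Epha4 and Epha5 lay higher on every Bmi1 array than on any control array, by 0.32 and 0.41, without passing the test. Epha3 had a difference of -0.35, and the remaining 5 genes had differences between -0.10 and 0.12. Among all 19938 genes, 4.37% fell and 2.98% rose by the same test, and 5.7% of all probe sets passed in either direction. The median difference of the 9 EphA genes was 0.06, against 0.01 over all genes.

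**Figure D1:**
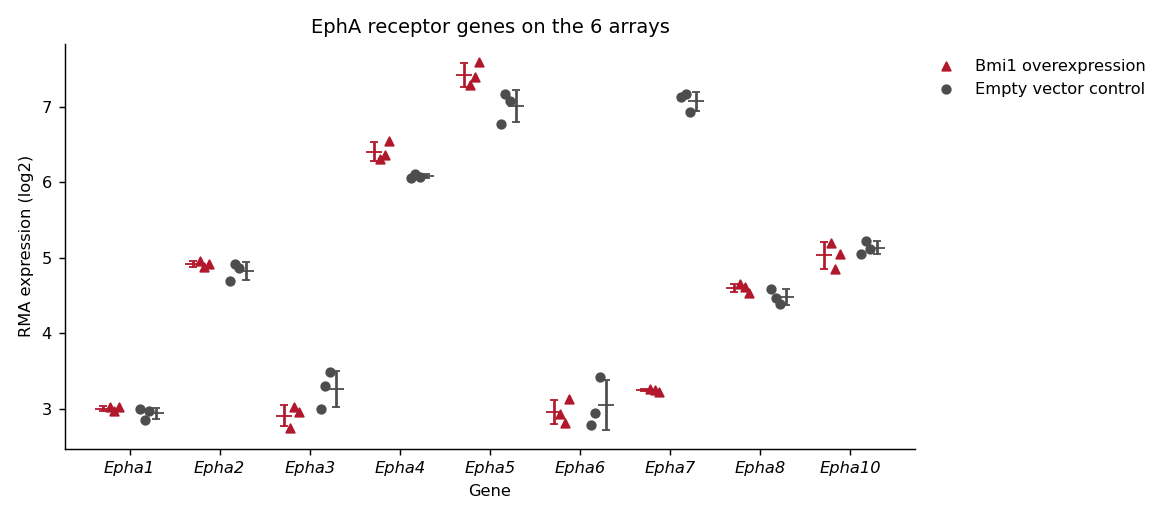
Log2 expression of the 9 EphA genes (x axis) on the 3 Bmi1 overexpression arrays (red triangles) and the 3 Empty vector control arrays (grey circles); the lines beside the points give the mean and SD. The values of Epha7 lay between 3.23 and 3.26 with Bmi1 and between 6.93 and 7.16 with the empty vector, whereas those of Epha1, Epha2, Epha3, Epha6, Epha8 and Epha10 overlapped between the groups.

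The sequences around the transcription start of Epha7, the member that fell, and of Epha4 and Epha5, whose values were higher with Bmi1 on every array, are given for comparison. They are RefSeq promoters of the mouse build GRCm38.p6, 250 bases before to 50 bases after the start, written 5′ to 3′ on the strand of the gene, with each CpG dinucleotide (the site of DNA methylation) in capitals. The Epha7 window is chr4:28812881-28813180 on the plus strand, that of Epha4 is chr1:77515039-77515338 on the minus strand and that of Epha5 is chr5:84417333-84417632 on the minus strand.
Epha7: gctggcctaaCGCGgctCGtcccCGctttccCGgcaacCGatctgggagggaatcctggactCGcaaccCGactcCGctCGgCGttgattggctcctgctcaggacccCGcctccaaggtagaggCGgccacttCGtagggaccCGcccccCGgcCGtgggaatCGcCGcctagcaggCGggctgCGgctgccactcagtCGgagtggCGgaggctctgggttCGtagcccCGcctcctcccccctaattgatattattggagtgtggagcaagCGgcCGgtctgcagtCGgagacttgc
Epha4: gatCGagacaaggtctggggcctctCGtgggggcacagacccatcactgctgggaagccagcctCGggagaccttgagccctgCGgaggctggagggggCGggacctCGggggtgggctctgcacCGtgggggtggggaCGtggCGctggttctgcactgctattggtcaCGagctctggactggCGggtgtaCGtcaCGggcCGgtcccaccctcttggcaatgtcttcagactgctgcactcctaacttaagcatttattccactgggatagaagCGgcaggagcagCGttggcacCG
Epha5: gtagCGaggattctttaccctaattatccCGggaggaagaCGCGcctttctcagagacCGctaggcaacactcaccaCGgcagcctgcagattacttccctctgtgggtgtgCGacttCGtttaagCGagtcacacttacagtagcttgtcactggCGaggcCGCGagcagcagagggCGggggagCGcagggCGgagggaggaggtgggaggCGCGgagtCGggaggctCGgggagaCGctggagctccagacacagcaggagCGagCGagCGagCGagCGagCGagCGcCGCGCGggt

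All 9 EphA genes matched an entry of the promoter table. The Epha7 window held 28 CpGs, and 14.2% of the 32851 promoters of the same length held at least as many. A second annotated start of Epha7, chr4:28812895-28813194, gave 27. The Epha4 window held 17 CpGs and the Epha5 window 30. Over the 9 members the count ran between 10 in Epha2 and 56 in Epha8, above the median of 7 over all promoters in each member. The motif CCAAT, searched on both strands, was found in 5 of the 9 members and in 37.4% of all promoters, with 2 matches in the Epha7 window. The motif GGGCGG, also searched on both strands and itself holding a CpG, was found in 8 of the 9 members and in 35.7% of all promoters, with 1 match in the Epha7 window. Matches of the motifs were counted separately, whether or not they overlapped. The windows are a description of the genes, since the arrays measured RNA only.

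The label checks, the cell type markers and the spread of the arrays set the frame for these values. Bmi1 itself (probe set 10469514) read 9.18, 8.36 and 8.42 on the Bmi1 arrays and 7.70, 8.40 and 8.31 on the control arrays, a difference of 0.52 (95% confidence interval -0.16 to 1.19, limma adjusted p = 0.38), so this probe set did not separate the groups. Whether it covers the Bmi1 sequence of the vector is not known here, so it is a limited check of the labels. Cdkn2a, the locus of the Bmi1-repressed cell cycle inhibitors Ink4a and Arf, fell by 1.08 (limma adjusted p = 0.0012). For all 6 arrays 1 label field, the source name, gives the group the wrong way round relative to the titles, transduction and genotype fields, and these were followed. The labels name pCMMP-Bmi1, whereas the text of the study names a FLAG-tagged Bmi1. Array medians lay between 4.37 and 4.45, and correlations over all probe sets were 0.991 to 0.993 within groups and 0.985 to 0.987 between groups. The stem cell markers Nes, Sox2, Fabp7 and Vim averaged 9.64, 10.42, 12.13 and 12.25 with Bmi1 and 9.69, 10.20, 11.89 and 12.27 with the empty vector. Of 11 stem and progenitor markers 3 rose (Prom1 by 1.58, Hes5 by 1.05 and Sox9 by 0.62) and 0 fell, Slc1a3 and Hes1 had differences of -0.31 and -0.28 with all Bmi1 arrays lower, and the mean over the list was 9.05 to 9.17 on the Bmi1 arrays and 8.78 to 8.86 on the control arrays. Of 8 astrocyte markers 3 rose (Ndrg2 by 3.04, Aqp4 by 1.06 and Gja1 by 0.76) and 0 fell. Slc1a2, Aldh1l1 and Gfap had differences of 0.55, 0.13 and 0.10, and S100b and Aldoc of -0.38 and -0.28. The list mean was 7.71 to 7.98 with Bmi1 and 7.16 to 7.27 with the empty vector, a difference of 0.62 that was 0.28 without Ndrg2. Of 9 oligodendrocyte lineage markers 1 rose, Pdgfra by 1.00, and 0 fell (list mean 6.77 to 6.87 with Bmi1, 6.53 to 6.60 with the empty vector). Of 8 neuroblast and neuron markers 2 rose, Elavl3 by 1.22 and Dcx by 0.55, and 0 fell. Their list mean was 4.50 to 4.61 with Bmi1 and 4.27 to 4.35 with the empty vector. In limma 0 of the 6 ependymal, 6 microglia, 6 endothelial and 8 pericyte and fibroblast markers passed. The means of these lists lay between 3.28 and 4.19 with Bmi1 and between 3.20 and 4.25 with the empty vector. At an unadjusted p under 0.05 they had 1, 0, 1 and 0 markers. That count was 8 of 11 stem, 6 of 8 astrocyte, 4 of 9 oligodendrocyte and 4 of 8 neuronal markers. Over all genes 22.7% lay under that p, and 2.98% rose and 4.37% fell by the adjusted test. The lists without a call were also dimmer, with a median of the gene means of 3.15 to 4.13, against 4.72 to 8.93 in the other marker lists. The part of brightness in these counts was not tested. The part of these marker shifts in the EphA results was not tested.

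Epha7 (probe set 10503659, chromosome 4) codes for a receptor known for guiding cortical and retinal axons and for cell death of forebrain progenitors in the mouse embryo, and it is made as full-length, truncated and secreted variants. On the Bmi1 arrays it read 3.26, 3.25 and 3.23, and on the control arrays 7.12, 7.16 and 6.93. Every Bmi1 array lay far below every control array, and the gap between the groups was many times the spread within either. The means were 3.25 ± 0.02 with Bmi1 and 7.07 ± 0.12 with the empty vector (SD, n = 3 each). The difference was -3.82 (SE 0.08, 95% confidence interval -4.02 to -3.63), a signal 14.2-fold lower with Bmi1 (95% confidence interval 12.3 to 16.3, limma adjusted p = 1.1e-04). The p-value of Epha7 ranked 1 among all 35557 probe sets, and 2 of the 19938 genes had a larger absolute difference. The exact two-sided permutation test gave p = 0.10, the smallest that 3 against 3 arrays allow. Epha4 and Epha5 gave the same p in this test, which groups without overlap always give (31.3% of all genes).

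In position on the array scale, Epha7 lay at or above 31.2% of all probe sets with Bmi1 and at or above 78.8% with the empty vector. RMA values of dim probe sets are compressed toward the background and the values used carry no detection call, so a fold change on this scale can understate the change in RNA. In bulk RNA, fewer cells expressing Epha7 and less Epha7 RNA per cell cannot be told apart. One probe set sums over the gene, and full-length, truncated and secreted variants were therefore not separated.

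**Figure D2:**
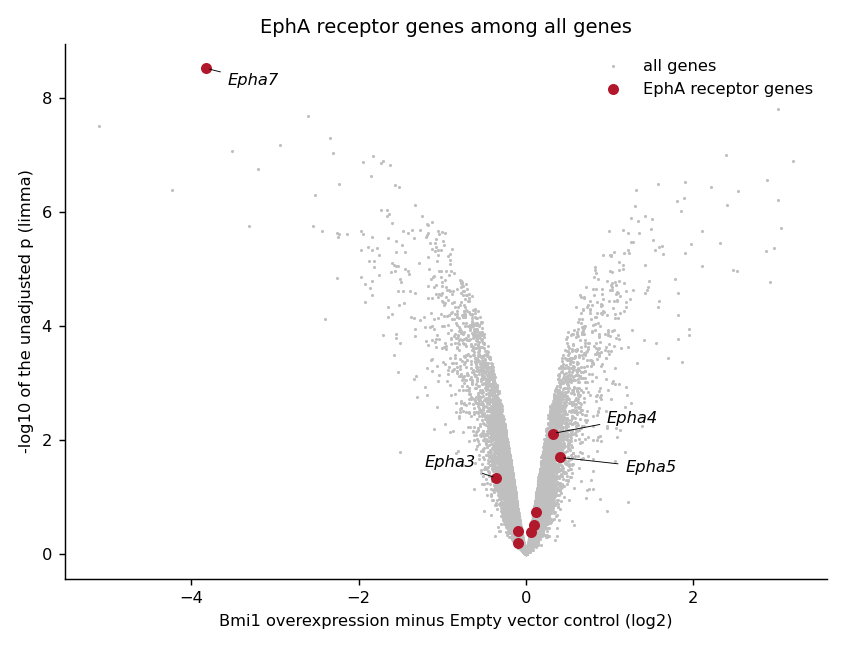
Difference between Bmi1 overexpression and Empty vector control (x axis, log2) against -log10 of the unadjusted limma p (y axis) for 1 probe set of each of 19938 genes (grey) and the 9 EphA genes (red). Epha7 has the smallest p-value of all, Epha4 and Epha5 lie on the higher side and Epha3 on the lower side among many other genes, and the other 5 lie near 0.

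The change of Epha7 was also expressed relative to its class, by subtracting the mean of the other 8 EphA genes on each array. Epha7 was singled out for its fall, so this describes the same difference in another form. Levels of different probe sets cannot be set against each other, and the comparison between the groups alone has a meaning. The result was -1.37, -1.36 and -1.49 on the Bmi1 arrays and 2.63, 2.54 and 2.26 on the control arrays. The 3 Bmi1 arrays lay close together and apart from the 3 control arrays. The means were -1.41 ± 0.07 with Bmi1 and 2.48 ± 0.19 with the empty vector (SD, n = 3 each), a difference of -3.88 (exact two-sided permutation test, p = 0.10, the smallest possible). The mean of the other 8 was 4.65 ± 0.05 with Bmi1 and 4.60 ± 0.09 with the empty vector (SD, n = 3 each), a difference of 0.06 that was smaller than the spread of the control arrays.

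Epha4 (probe set 10355893, chromosome 1) codes for a receptor that binds ephrins of both classes and repels growing axons, for example those of the corticospinal tract. It read 6.30, 6.36 and 6.55 with Bmi1, against 6.06, 6.11 and 6.07 with the empty vector, with no overlap. The means were 6.40 ± 0.13 with Bmi1 and 6.08 ± 0.03 with the empty vector (SD, n = 3 each). The difference of 0.32 (SE 0.08, 95% confidence interval 0.12 to 0.52) corresponds to a signal 1.25-fold that of the control (95% confidence interval 1.09 to 1.44) and missed the threshold (limma adjusted p = 0.089). It passed when dim probe sets with a mean under 5 were left out before the fit (adjusted p = 0.021 from limma). With this filter 3424 probe sets were called, against 2025 without it. Epha4 also passed when 1 probe set per gene was fitted (adjusted p = 0.036 from limma), where 2539 of 19938 genes were called.

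Epha5 (probe set 10530870, chromosome 5) codes for a receptor that takes part in retinal axon mapping and in hippocampal synapses. Its values were 7.29, 7.39 and 7.59 with Bmi1 and 6.78, 7.17 and 7.08 with the empty vector. The lowest Bmi1 array was again above the highest control array, with a wider spread than for Epha4. The means were 7.42 ± 0.15 with Bmi1 and 7.01 ± 0.21 with the empty vector (SD, n = 3 each). The difference of 0.41 (SE 0.13, 95% confidence interval 0.09 to 0.73), a signal 1.33-fold that of the control (95% confidence interval 1.06 to 1.66), did not pass (limma adjusted p = 0.15). Without the dim probe sets it passed (adjusted p = 0.048 from limma), where 3424 probe sets were called, against 2025 with them. In all, 3 of the 9 EphA genes had groups that did not overlap, 1 lower and 2 higher with Bmi1, where 31.3% of all genes had such groups.

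Epha3 (probe set 10440258, chromosome 16) codes for a receptor for ephrin-A ligands such as ephrin-A5. It read 2.75, 3.03 and 2.96 with Bmi1 and 3.00, 3.30 and 3.48 with the empty vector. The highest Bmi1 array lay above the lowest control array, so the groups overlapped by a narrow margin. The difference was -0.35 (95% confidence interval -0.70 to -0.01) and was not past the threshold (limma adjusted p = 0.24). Epha6 (probe set 10440216), on the same chromosome, codes for a receptor of the visual system and hippocampus. Its values were 2.93, 2.81 and 3.13 with Bmi1 and 2.78, 2.94 and 3.42 with the empty vector, and they overlapped. The difference of -0.09 (95% confidence interval -0.53 to 0.34, limma adjusted p = 0.83) had the widest interval of the class. It turned to 0.094 without the third control array (limma adjusted p = 0.77).

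Epha2 and Epha1 code for receptors best known from epithelia. Epha2 (probe set 10509965, chromosome 4) read 4.96, 4.88 and 4.91 with Bmi1 and 4.69, 4.92 and 4.87 with the empty vector, a difference of 0.09 (95% confidence interval -0.11 to 0.29, limma adjusted p = 0.61). Epha1 (probe set 10544417, chromosome 6) read 3.02, 2.97 and 3.02 with Bmi1 and 3.00, 2.86 and 2.97 with the empty vector, a difference of 0.06 (95% confidence interval -0.11 to 0.23, limma adjusted p = 0.70). Both pairs of groups overlapped. Neither interval reached 0.3 on the log2 scale.

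Epha8 and Epha10 lie on chromosome 4, as Epha7 and Epha2 do. Epha8 (probe set 10517521) codes for a receptor of the midbrain in the mouse embryo. It read 4.65, 4.62 and 4.53 with Bmi1 and 4.58, 4.47 and 4.38 with the empty vector, a difference of 0.12 (95% confidence interval -0.07 to 0.31, limma adjusted p = 0.49). Epha10 codes for a receptor whose kinase domain lacks residues needed for catalysis. Its main probe set 10507983 read 5.20, 4.85 and 5.05 with Bmi1 and 5.05, 5.22 and 5.12 with the empty vector, a difference of -0.10 (95% confidence interval -0.36 to 0.16, limma adjusted p = 0.68). Its other probe set, 10507990, read 4.74, 4.44 and 4.75 with Bmi1 and 4.68, 4.93 and 4.52 with the empty vector, a difference of -0.07 (95% confidence interval -0.41 to 0.26). Groups overlapped for both genes and for both probe sets of Epha10.

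The genes whose 6 array values were most like those of Epha7 were found by centring each gene on its own mean and taking the root mean square difference over the 6 arrays. Among 19937 genes the nearest was Rps6ka6, which codes for a member of the ribosomal S6 kinase family, with a root mean square difference of 0.247. It read 3.18, 3.60 and 3.47 with Bmi1 and 6.95, 6.79 and 7.04 with the empty vector, a difference of -3.51. It was followed by Olfr618, an olfactory receptor gene (0.306), and Commd3, the gene next to Bmi1 (0.360). Fgl2, which codes for a fibrinogen-like protein, came next (0.363), and then Lnpk, which codes for a protein of the endoplasmic reticulum (0.472). The differences between the groups were -4.23 for Olfr618, -3.21 for Commd3, -3.31 for Fgl2 and -2.94 for Lnpk. Pearson's r with Epha7 was 0.988 to 0.995 for these 5 genes, over 6 arrays that fall into the 2 groups, so it describes the group difference and little else. The other EphA genes had differences between -0.35 and 0.41, so none could be among these 5, and their absence is no separate result.

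**Figure D3:**
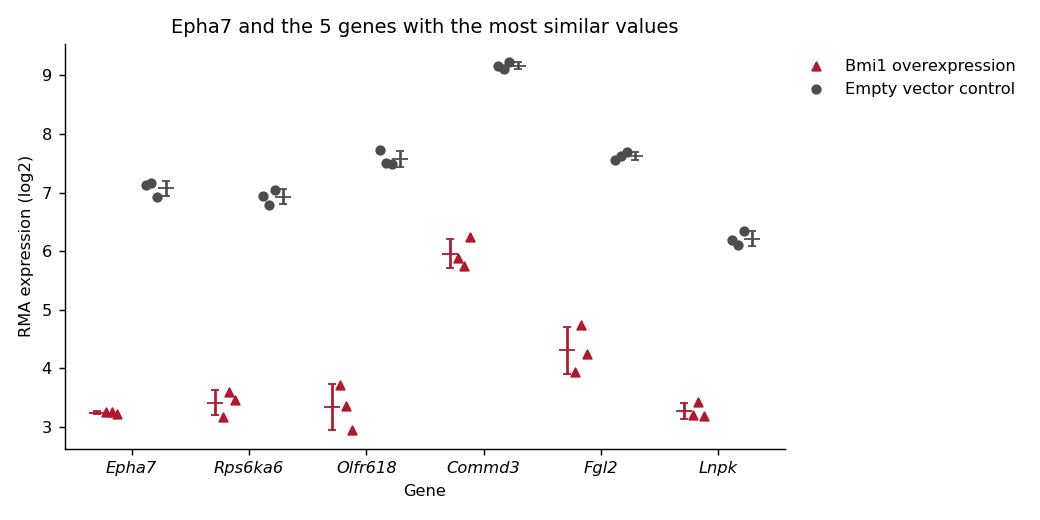
Log2 expression of Epha7 and of the 5 genes with the smallest root mean square difference from it, on the 3 Bmi1 overexpression arrays (red triangles) and the 3 Empty vector control arrays (grey circles), with mean and SD. In each gene the 3 Bmi1 arrays lay below the 3 control arrays, and the SD of Epha7 on the Bmi1 arrays was 0.02, against 0.21 for Rps6ka6 on the same arrays.

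The EphB receptors and the ephrins were set beside the EphA class. Of the 5 EphB genes listed, 4 were measured and Ephb2 was not analysed here. In limma 0 of the 4 passed, with 1 at an unadjusted p under 0.05 (22.7% of all genes), and their median difference was 0.12. That 1 was Ephb6, named after its values were seen, which codes for a receptor without kinase activity. It read 4.47, 4.06 and 4.57 with Bmi1 and 5.04, 5.14 and 4.90 with the empty vector, a difference of -0.66 (95% confidence interval -1.02 to -0.30, limma adjusted p = 0.060). The other measured EphB genes had differences between 0.10 and 0.24, and so no measured EphB gene had a difference near that of Epha7.

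Among the 5 ephrin-A ligands 1 rose and 0 fell, with a median difference of 0.23 (of all genes 2.98% rose and 4.37% fell). Efna2, a ligand of several EphA receptors, read 6.37, 6.48 and 6.56 with Bmi1 and 6.14, 5.98 and 5.98 with the empty vector. It rose by 0.44 (SE 0.08, limma adjusted p = 0.037). Among the 3 ephrin-B ligands 1 fell and 0 rose, with a median difference of -0.06. Efnb2, which EphB receptors and Epha4 bind, read 5.40, 5.23 and 5.23 with Bmi1 and 5.67, 5.86 and 6.01 with the empty vector. It fell by 0.56 (SE 0.11, limma adjusted p = 0.037). Neither call was firm, since that of Efna2 was lost without any 1 of the 6 arrays (adjusted p = 0.059 to 0.13 from limma). That of Efnb2 was lost without any array but the first control array (adjusted p = 0.072 to 0.12 from limma).

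**Figure D4:**
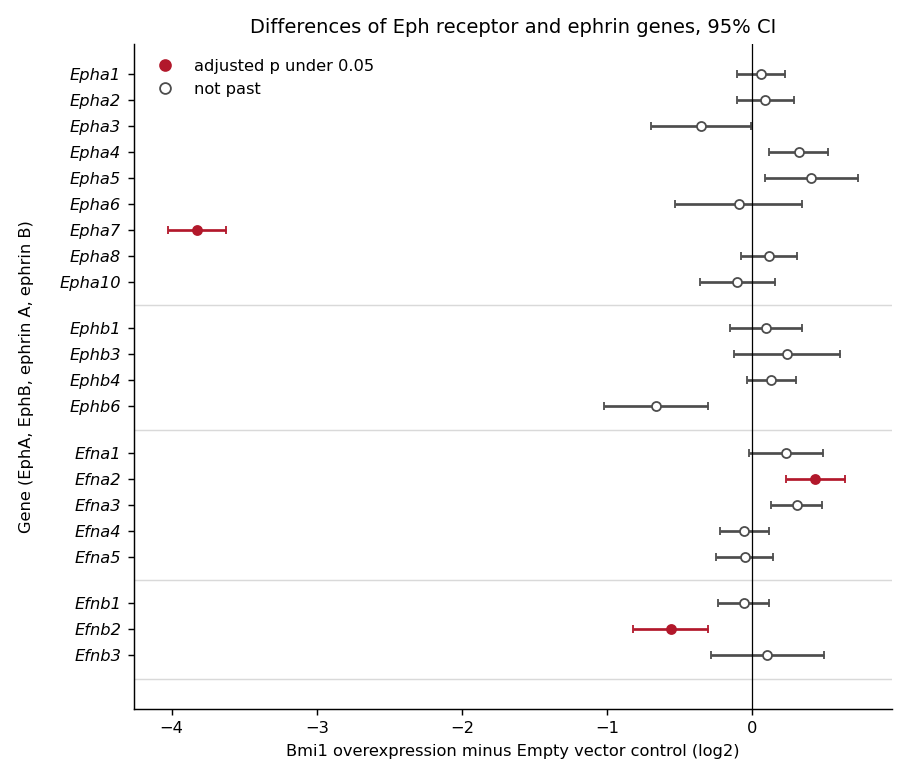
Difference between Bmi1 overexpression and Empty vector control (x axis, log2) with its 95% confidence interval for each measured EphA, EphB, ephrin-A and ephrin-B gene (y axis); filled points passed at an adjusted p under 0.05. Epha7 stands at -3.82, and all other receptors and ligands lie between -0.66 and 0.44.

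Proteins that carry the signal of Eph receptors inside the cell, or cut and recycle the receptors, were counted by role. Of 20 measured exchange factors and GTPase regulators (22 listed) 1 rose and 1 fell, where 2.98% of all genes rose and 4.37% fell. Their median difference was -0.08. Ngef, the exchange factor ephexin that links Epha4 to RhoA, read 5.43, 5.24 and 5.46 with Bmi1 and 4.78, 4.80 and 4.70 with the empty vector. It rose by 0.61 (limma adjusted p = 0.011). Chn2, a chimaerin that switches off Rac, read 9.31, 9.36 and 9.28 with Bmi1 and 9.72, 9.74 and 9.87 with the empty vector, and fell by 0.46 (limma adjusted p = 0.017). The values of both genes were separated between the groups on all 6 arrays.

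Of 14 adaptors and SAM domain partners 1 rose and 2 fell, where 2.98% of all genes rose and 4.37% fell. Their median difference was -0.07. Nck2, an adaptor to the actin machinery, read 7.51, 7.50 and 7.54 with Bmi1 and 8.01, 7.99 and 8.05 with the empty vector, and fell by 0.50 (limma adjusted p = 0.0076). Shc1, an adaptor of many receptor tyrosine kinases, read 6.02, 6.15 and 6.25 with Bmi1 and 6.71, 6.75 and 6.87 with the empty vector, and fell by 0.64 (limma adjusted p = 0.011). Both adaptors stayed past the threshold whichever array was left out. Anks1b, which codes for a protein with SAM domains like those of Eph receptors, read 5.22, 5.56 and 5.44 with Bmi1 and 4.07, 4.22 and 4.73 with the empty vector, and rose by 1.07 (limma adjusted p = 0.026).

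Of 14 measured kinases, phosphatases, proteases and ubiquitin ligases that act on Eph receptors (16 listed) 1 rose and 1 fell. Their median difference was -0.22, and of all genes 2.98% rose and 4.37% fell. Mmp14, a membrane protease that cleaves Epha2, read 9.46, 9.49 and 9.63 with Bmi1 and 7.89, 8.22 and 8.91 with the empty vector, and rose by 1.19 (limma adjusted p = 0.048). Abl2, a kinase acting on the cytoskeleton, read 6.36, 6.44 and 6.30 with Bmi1 and 7.05, 6.81 and 6.81 with the empty vector, and fell by 0.52 (limma adjusted p = 0.027). Control arrays of Mmp14 and Anks1b were spread more widely than the Bmi1 arrays of these genes. Without 1 array the call of Abl2 was lost in all 6 cases (adjusted p = 0.060 to 0.093 from limma). Those of Mmp14 (adjusted p = 0.093 to 0.15 from limma) and Anks1b (adjusted p = 0.060 to 0.098 from limma) were lost in all cases but that without the third control array. That of Chn2 was lost in all but that without the first control array (adjusted p = 0.054 to 0.068 from limma), and that of Ngef without the first Bmi1 array or the third control array (adjusted p = 0.051 and 0.053 from limma). Groups did not overlap for 60.0%, 50.0% and 64.3% of the genes of the 3 lists in the order given, against 31.3% of all genes. Of these genes 8, 5 and 8 were lower with Bmi1 and 4, 2 and 1 higher, against 3180 lower and 3058 higher over all genes. At an unadjusted p under 0.05 there were 6 of 20, 5 of 14 and 9 of 14, where 22.7% of all genes lay under that p. These lists were also brighter, with a median of the gene means of 7.28, 6.79 and 8.15, against 5.11 over all genes. Genes of like brightness were not compared, so the part of brightness in these shares was not tested.

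**Figure D5:**
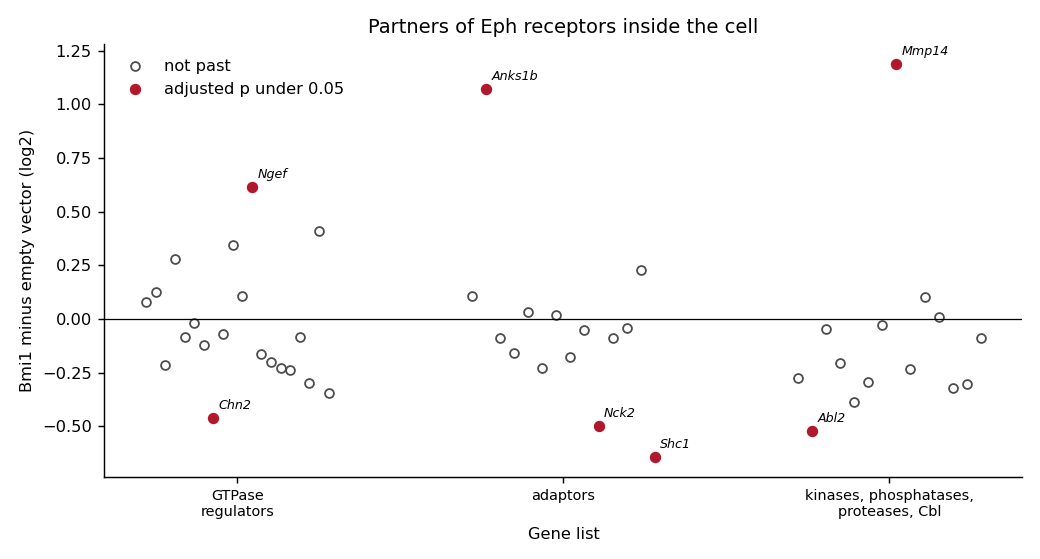
Difference between Bmi1 overexpression and Empty vector control (y axis, log2) for each measured partner of Eph receptors inside the cell, by gene list (x axis); filled points passed at an adjusted p under 0.05. The 7 filled points lie between -0.64 and 1.19.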

How the data were processed

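RNA of 3 Bmi1 overexpression and 3 Empty vector control cultures (300 ng each) was hybridised to 1 array per culture. The deposited values are log2 expression per probe set, which the authors made with RMA, which corrects background, equalises the distributions of the arrays by quantiles and sums up the probes of a set, in Affymetrix Expression Console, per the submitters' processing notes. The sources used here give no versions, library file or genome build. Of 35557 probe sets, 21789 name 1 gene in the platform annotation, 1621 name several and were not used by name, and 12147 are unnamed. Entrez identifiers of 21698 were found in the RefSeq table of GRCm38.p6, and 0 symbols changed.

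The group difference was fitted for every probe set with lmFit and eBayes of limma 3.58.1 (R 4.3.3). Tests were two-sided, nothing was filtered, and p-values were adjusted by Benjamini-Hochberg across the whole array. The number of arrays limits the precision. Single values were tested by exact permutation of the arrays. The script was tested on simulated data. The EphA members and the gene lists were chosen with earlier results of these data known. Genes were named by a rule: all EphA genes, Bmi1, Cdkn2a and Commd3, from each Eph list the called genes of smallest adjusted p up to a limit of 4, and the 5 genes most like Epha7. Marker genes were named as examples. Alternatives were the t-test of the study's methods (at p under 0.001 with a difference of 1 or more, and with Benjamini-Hochberg adjustment), a Welch test with the same adjustment, a filter at a mean of 5, testing 1 probe set per gene, centring on medians, quantile normalization, eBayes with trend or robust, array weights, a replicate block, and leaving out single arrays. Promoter windows came from RefSeq, and figures were drawn with matplotlib 3.10.9. Proteins, chromatin and DNA methylation were not analysed here.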

Additional observations from a re-analysis of the deposited data

How the results depend on the processing

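Epha7 stayed past the threshold under all 17 alternatives, with differences of -3.90 to -3.78 and an adjusted p of at most 0.049 (Welch test). Its difference from the other 8 EphA genes was -3.99 to -3.80 without 1 array. Of the EphA genes 1 was called in the limma fit over all probe sets and without any 1 array. With a filter at a mean of 5 the count was 3 (Epha4 at 0.32 and Epha5 at 0.41 added), where 3424 probe sets were called. The number of probe sets kept is not given here, so the counts under this filter have no share beside them. Epha7 itself passes this filter through its control arrays. Of the other EphA genes only Epha10 was kept by the filter, and it was not called (adjusted p = 0.50 from limma). With 1 probe set per gene the count was 2 (Epha4 at 0.32 added), where 2539 of all 19938 genes were called. In both cases limma was fitted again on fewer probe sets, so the unadjusted p-values changed too. Without the third control array the difference of Epha6 turned to 0.094, against a range down to -0.23 without other arrays. The other EphA genes kept their direction in all alternatives. Over all probe sets 2025 were called, and 300 by the methods' t-test at p under 0.001 with a difference of 1 or more, 1377 by the same test with Benjamini-Hochberg adjustment, 210 by the Welch test with that adjustment, 3424 with the filter, 3190 with eBayes trend, 850 with the replicate block and 974 to 1275 without 1 array. In the other 6 Eph lists 9 genes were called, against 0, 6, 1, 18, 17 and 1 under the same settings in that order, 16 with 1 probe set per gene, and 2 to 5 without 1 array. Why the counts differed between these settings was not tested. Replicate numbers gave no sign of pairing the arrays, since deviations of same-numbered arrays correlated at -0.03 to 0.00003. Of the 6 arrays 0 correlated best with their own number. With 3 arrays per group this cannot decide whether same-numbered cultures shared an origin. With the replicate block 1 EphA gene was called, Epha7 (adjusted p = 0.011 from limma). Of the called probe sets 60.8% fell, against 71.2% after median centring. The 3 arrays per group limit all of these values, and dim probe sets such as those of Epha1, Epha3 and Epha6 can have compressed differences.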
